A study of Mus musculus with 2 samples.

Results

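The transcription factors that build and maintain skeletal muscle were followed in laser-cut pieces of mouse hair follicle. The family comprised 9 genes, Pax7, Myf5, Myod1, Myog, Myf6, Mef2a, Mef2c, Mef2d and Six4, and its members were every probe set that the platform annotation pairs with one of these symbols. There were 25 such probe sets among the 45101 on the array, and they stood for 9 of 18194 genes with a named probe set. Expression was measured with 1 array for the bulge and 1 for the hairshaft. Both structures were dissected from eosin-stained frozen skin sections of 21-day-old C57Bl6 mice with no treatment or engineered allele named in the labels, and the labels do not state how many animals were pooled. A single array per structure leaves no replicate error to judge a difference by, so all values below describe these 2 arrays and no p-value is given.

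Myogenic factors act in a hierarchy. Pax7 marks the satellite cells, the resting stem cells of muscle. Myf5 and Myod1 commit cells to the muscle lineage, Myog drives their fusion and differentiation, and Myf6, also called Mrf4, is the member of this basic helix-loop-helix (bHLH) group that adult muscle fibres mainly keep. The bHLH factors pair with E-proteins on short sites called E-boxes, MEF2 factors bind an adenine- and thymine-rich site beside them, and homeobox factors of the Six4 type act with EYA cofactors upstream of both. Mouse skin holds a sheet of skeletal muscle under the dermis, the panniculus carnosus, while the follicle epithelium is not a known site of these bHLH factors; MEF2 genes are active in many other cells, among them endothelium, smooth muscle and leukocytes.

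Values are log2 summaries of each probe set made by the authors with GCRMA. A value counted as above background when it exceeded 2.68, the 95th percentile of 80 probe sets for odorant and vomeronasal receptors, on its array. Each difference is log2 bulge minus log2 hairshaft. Where 1 array did not exceed the floor, the floor replaced its value, and the fold is then a lower bound. A gene or probe set that differed by 2-fold or more is called bulge-high or hairshaft-high. The family split into 3 patterns. Mef2c, Myf6 and Six4 were higher in the bulge, Mef2a and Mef2d each differed by less than 2-fold between the structures with their brightest probe sets, and Pax7, Myf5, Myod1 and Myog did not exceed the floor in either structure. Of the 5 genes above the floor, 3 were bulge-high and 0 hairshaft-high; over all 13329 genes compared, 11.4% were bulge-high and 4.91% hairshaft-high. At 8-fold the bulge count was 2, Mef2c and Myf6, against 3.02% of all genes. The median difference of the 5 was 1.49, and that of all genes 0.00. In bulk tissue pieces, fewer cells of a type and less RNA per cell cannot be told apart.

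**Figure D1:**
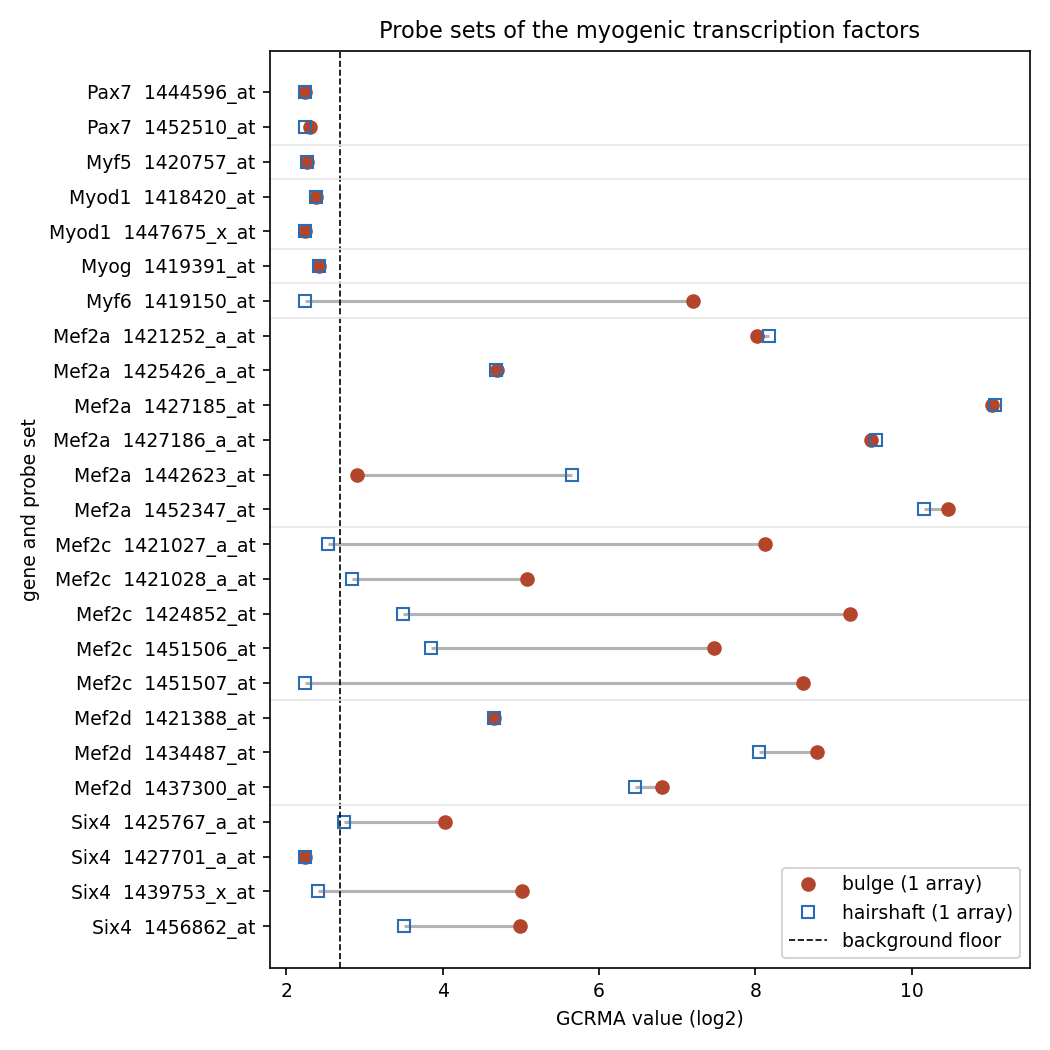
GCRMA values (log2, horizontal axis) of the 25 probe sets of the 9 myogenic factors (vertical axis), with filled circles for the bulge array, open squares for the hairshaft array and the background floor of 2.68 dashed. All 5 Mef2c probe sets and the Myf6 probe set lie far to the right in the bulge, while those of Pax7, Myf5, Myod1 and Myog lie left of the floor on both arrays.

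By probe set, 18 of 25 were above the floor on at least 1 array and 7 were not. Of the 18, 9 were bulge-high and 1 was hairshaft-high, against 9.52% bulge-high and 7.37% hairshaft-high among the 28721 probe sets compared. At 8-fold there were 5 in the bulge, against 2.13%, and 0 in the hairshaft, against 0.317%. The 9 came from 3 genes only, namely 5 from Mef2c, 3 from Six4 and 1 from Myf6, so they are not independent readings.

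Among the bHLH factors, Myf6 alone was above the floor. Its single probe set, 1419150_at, read 7.20 in bulge and 2.23, the lowest value in the table, in hairshaft. The bulge was thus at least 23.0-fold higher (a bounded log2 difference of 4.52), and 179 of the 13329 genes had a larger difference in this direction. With the floor moved up to the receptors' 99th percentile the log2 difference was 2.99, and with 16 added to each linear value (the offset) it was 2.87, both just under 8-fold.

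The other bHLH factors gave no readable signal in either structure. Myod1, the founding member of the group, read 2.38 in bulge and 2.38 in hairshaft with probe set 1418420_at, and 2.23 on both arrays with 1447675_x_at. Myf5, the earliest of the group in the embryo, read 2.27 in both, and Myog, the switch to differentiation, 2.42 in both. Pax7 had 2.30 in bulge and 2.23 in hairshaft with 1452510_at and 2.23 on both arrays with 1444596_at. None of these 6 probe sets exceeded the floor in either structure, so the arrays hold no level and no fold for these 4 genes, which does not show that their transcripts were absent.

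The start region of Myog is shown because it holds letters matching each of the 3 kinds of site searched, those of the bHLH, MEF2 and Six4-type factors; no site for Pax7 was searched. Promoter sequences were taken from RefSeq (GRCm38.p6), whose table held 7 of the 9 members with 10 start sites, and the 250 bases before each start were searched on both strands. The motifs were CANNTG for the E-box, CTANNNNTA for the core of the MEF2 site (without requiring adenine or thymine at the N positions) and TCAGGTT for the MEF3 site that Six4-type factors bind. Of 32851 promoters of this length, 66.2% held CANNTG, 19.0% held CTANNNNTA and 3.49% held TCAGGTT. In the sequence of Myog, at chr1:134289754-134290003 on the plus strand, the capitals mark in order an E-box match (138 to 133 bases before the start), the MEF3 match (84 to 78), the MEF2 core match CTATATTTA (64 to 56) and a further E-box match, CAGTTG (12 to 7). None of these matches overlapped another. Over the 10 windows of the family, 3 held an E-box match, 3 a MEF2 core match, which in Myf5 was 2 overlapping matches on opposite strands, and 3 the MEF3 motif. The E-box form CAGCTG, present in 13.0% of all promoters, was in none of the 10. A match is a string of letters and not a measured binding site.
Myog: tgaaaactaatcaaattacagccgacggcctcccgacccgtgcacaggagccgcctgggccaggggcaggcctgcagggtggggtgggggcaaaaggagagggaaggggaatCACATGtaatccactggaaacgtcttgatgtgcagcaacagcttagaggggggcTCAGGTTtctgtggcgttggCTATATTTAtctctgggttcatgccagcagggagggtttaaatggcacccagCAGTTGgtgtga

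The MEF2 genes, which encode MADS-box factors that cooperate with the bHLH group, went separate ways. Mef2c had the largest difference of the family. Its brightest probe set, 1424852_at, read 9.20 in bulge and 3.49 in hairshaft, which is 52.5-fold higher in the bulge (log2 5.72), and 107 of 13329 genes had a larger difference in this direction. Probe set 1451507_at read 8.61 in bulge and 2.23 in hairshaft, at least 61.0-fold apart. Likewise, 1421027_a_at read 8.12 in bulge and 2.53 in hairshaft, at least 43.5-fold. The remaining pair were closer, with 7.47 in bulge and 3.85 in hairshaft (12.3-fold) for 1451506_at and 5.08 in bulge and 2.84 in hairshaft (4.73-fold) for 1421028_a_at. All 5 Mef2c probe sets were therefore bulge-high; 3 of them share 1 source transcript in the platform annotation. Among 663 bulge-high genes that had several probe sets (2 or more) over the floor, 252 (38.0%) had every one of those probe sets bulge-high. The 663 include every such gene past 2-fold with its brightest probe set, so the share is not a like baseline for a difference as large as that of Mef2c. The log2 difference of Mef2c was 4.99 under the 99th percentile floor, 4.71 when its probe sets were averaged and 4.48 under the offset.

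Mef2c has several start sites, and the 3 listed ones are shown because this is the member with the largest difference and the arrays do not tell from which start the transcripts came. The sequences lie on the plus strand at chr13:83503784-83504033, chr13:83523406-83523655 and chr13:83573357-83573606. In order they are starts A, B and C. At start A the capitals mark AACCTGA, the MEF3 motif read on the opposite strand (248 to 242 bases before the start), and the E-box matches CAAGTG (234 to 229) and CATATG (100 to 95). Start B holds none of the 3 motifs. Start C holds the E-box match CAGATG (245 to 240) and the MEF2 core match CTAACGATA (191 to 183), whose inner letters are not all adenine or thymine.
Mef2c start A: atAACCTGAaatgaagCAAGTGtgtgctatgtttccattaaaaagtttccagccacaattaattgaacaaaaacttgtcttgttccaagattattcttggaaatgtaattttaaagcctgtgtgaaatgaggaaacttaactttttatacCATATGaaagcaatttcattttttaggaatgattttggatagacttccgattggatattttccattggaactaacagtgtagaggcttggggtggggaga
Mef2c start B: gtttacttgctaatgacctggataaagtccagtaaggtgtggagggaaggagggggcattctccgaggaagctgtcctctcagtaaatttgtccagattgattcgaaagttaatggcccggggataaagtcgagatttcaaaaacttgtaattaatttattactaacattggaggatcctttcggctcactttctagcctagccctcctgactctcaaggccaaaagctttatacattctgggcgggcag
Mef2c start C: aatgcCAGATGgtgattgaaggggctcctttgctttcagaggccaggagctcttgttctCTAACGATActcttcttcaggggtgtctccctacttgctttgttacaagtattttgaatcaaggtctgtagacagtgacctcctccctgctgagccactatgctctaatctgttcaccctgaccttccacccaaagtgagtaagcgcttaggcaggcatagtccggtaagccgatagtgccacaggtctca

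Mef2a, the member of the group most widely expressed, was measured by 6 probe sets, all above the floor. The brightest, 1427185_at, read 11.03 in bulge and 11.07 in hairshaft, a log2 difference of -0.04 that became 0.06 with a loess trend removed. Another, 1452347_at, read 10.46 in bulge and 10.16 in hairshaft, and 1427186_a_at read 9.48 in bulge and 9.54 in hairshaft. Values were 8.02 in bulge and 8.18 in hairshaft for 1421252_a_at, and 4.70 in bulge and 4.68 in hairshaft for 1425426_a_at. These 5 had differences from -0.16 to 0.31, so the structures were near one another in each. The exception was 1442623_at, with 2.90 in bulge and 5.66 in hairshaft, 6.74-fold higher in the hairshaft (log2 -2.75). It was the 1 hairshaft-high probe set of the family, 133 of the 28721 probe sets compared had a larger difference in that direction, and its source transcript in the annotation is not shared with the other 5. The probe sets of Mef2a thus disagree, and which part of the gene 1442623_at reads was not examined.

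Mef2d was within 2-fold in every probe set. Its brightest, 1434487_at, read 8.79 in bulge and 8.05 in hairshaft (log2 0.74, 1.67-fold), and 1437300_at read 6.81 in bulge and 6.46 in hairshaft. The last, 1421388_at, was 4.66 on both arrays with the same digits. Identical values (to within 1e-06) occurred in 3292 of the 28721 probe sets above the floor (11.5%), so equality of this kind is common in the deposited values and is not evidence of equal expression.

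Six4, a homeobox factor that works upstream of the bHLH genes together with EYA cofactors, was higher in the bulge at low levels. The brightest of its 4 probe sets, 1456862_at, read 4.99 in bulge and 3.50 in hairshaft (2.81-fold, log2 1.49), and 1037 genes had a larger difference in this direction. Probe set 1439753_x_at, whose suffix marks possible cross-hybridization and which shares its source transcript with 1456862_at, read 5.02 in bulge and 2.40 in hairshaft, at least 5.07-fold apart. A further one, 1425767_a_at, read 4.03 in bulge and 2.74 in hairshaft (2.44-fold), and 1427701_a_at was at the lowest value, 2.23, on both. All 3 probe sets above the floor were bulge-high. The gene was no longer bulge-high under the 99th percentile floor (log2 0.78) or the offset of 16 (0.81). Of 2 overlapping windows for Six4 in the table, the one that holds a motif is shown, at chr12:73113246-73113495 on the minus strand. Its capitals mark AACCTGA, the MEF3 motif on the opposite strand (97 to 91 bases before the start), and neither of the other motifs was in this window.
Six4: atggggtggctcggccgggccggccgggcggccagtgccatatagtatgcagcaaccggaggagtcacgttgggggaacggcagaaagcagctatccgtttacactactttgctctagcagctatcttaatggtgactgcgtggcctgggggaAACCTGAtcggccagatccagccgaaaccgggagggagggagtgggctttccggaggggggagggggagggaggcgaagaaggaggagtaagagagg

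**Figure D2:**
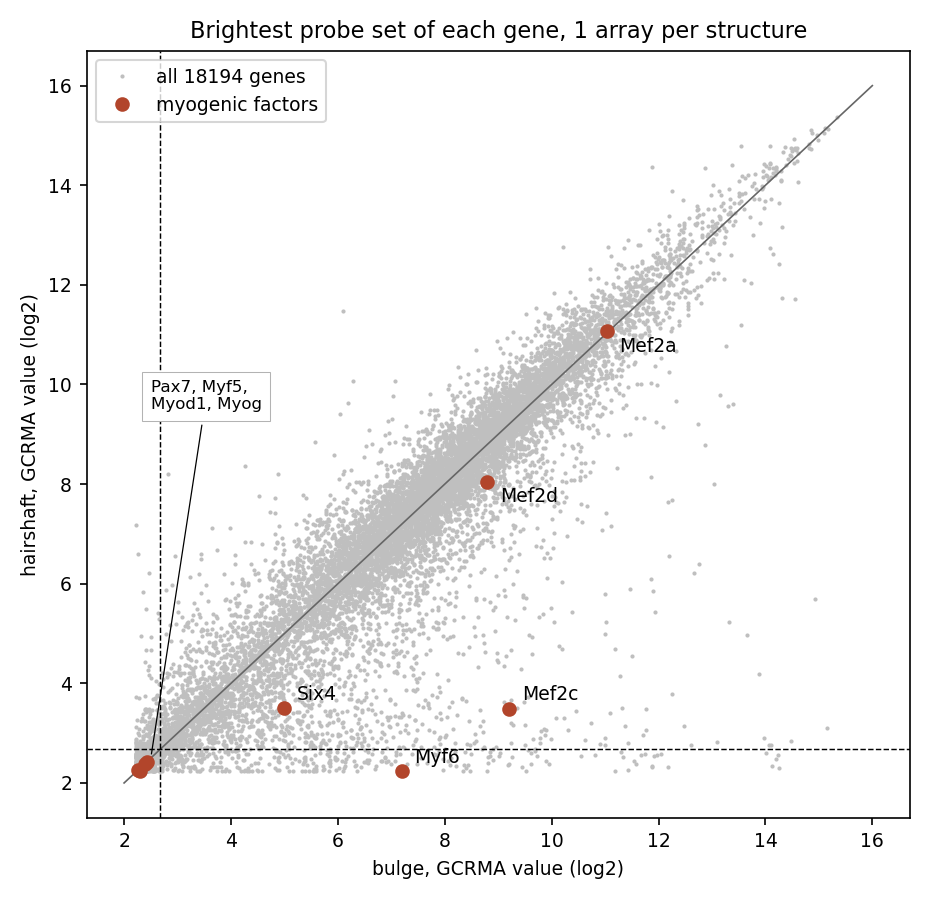
GCRMA values (log2) of the brightest probe set of each of 18194 genes in the bulge (horizontal axis) and in the hairshaft (vertical axis), with the diagonal of equal values, dashed lines at the floor, and the 9 myogenic factors as large points. Mef2c, Myf6 and Six4 lie below the diagonal, Mef2a and Mef2d near it, and the other 4 in the corner under the floor.

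With brightest probe sets, the factors known to work with or against the family were called bulge-high more often than all genes, while most differed by less than 2-fold. Of 83 such genes in 5 lists, 80 were measured and 70 were above the floor. Of the 70, 15 were bulge-high (21.4%, against 11.4% of all genes) and 2 hairshaft-high (2.86%, against 4.91%). The other 53 differed by less than 2-fold, as did 11148 of all 13329 genes compared. These lists were chosen with earlier results of these data known and include muscle genes such as Smyd1 and Ankrd2. The bulge-high excess is therefore not a result about regulators as a class. At 8-fold 3 of the 70 were bulge-high, against 3.02% of all genes. The median difference was 0.19, against 0.00 over all genes. With the mean of each gene's probe sets the bulge count was 9. That count was not set against the share of all genes under the same setting, so it does not show whether the excess held.

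E-proteins, the obligatory partners of the bHLH factors, were above the floor in both structures. Tcf4 read 9.36 in bulge and 9.36 in hairshaft, Tcf12 read 10.10 in bulge and 9.47 in hairshaft, and Tcf3 read 7.05 on both arrays with identical digits. Another Tcf3 probe set, 1426297_at, read 7.10 in bulge and 6.22 in hairshaft. None of the 3 reached 2-fold with its brightest probe set. Inhibitors of the bHLH group, such as the ID proteins that sequester E-proteins, were also mostly close. Of 14 above the floor, 12 differed by less than 2-fold, as did 11148 of all 13329 genes compared, so this does not set the inhibitors apart. By direction, 1 was bulge-high (7.14%, against 11.4% of all genes) and 1 hairshaft-high (7.14%, against 4.91%). The list median was 0.08. Among the 12 under 2-fold, Id3 lay just short of it toward the hairshaft (7.86 in bulge and 8.85 in hairshaft). Hey1, a Notch target and repressor of myogenesis, was bulge-high, with a difference of at least 2.75-fold (4.14 in bulge and 2.66 in hairshaft), and Twist2, a bHLH factor of dermal fibroblasts, 2.23-fold higher in the hairshaft (6.09 in bulge and 7.25 in hairshaft). Hey1 was not bulge-high under the offset (log2 0.59) or with the floor at the median of the whole table (the median floor, 0.66), and it did not exceed the 99th percentile floor. Twist2 was just under 2-fold with the offset.

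Among PAX, EYA and DACH factors and other homeobox genes of muscle precursors, 3 of 8 above the floor were bulge-high (37.5%, against 11.4% of all genes). These were Eya4 at least 2.65-fold (4.08 in bulge and 2.65 in hairshaft), Meox2, a homeobox factor of limb muscle precursors, at 2.43-fold (7.02 in bulge, 5.74 in hairshaft), and Eya1 at 2.22-fold (4.37 in bulge, 3.22 in hairshaft). Of the other EYA genes, Eya3 read 6.74 in bulge and 6.82 in hairshaft, with 1 of its 4 probe sets hairshaft-high. Eya2 exceeded the floor in neither structure, and Six5 read 3.99 in bulge and 4.42 in hairshaft. Eya1 and Eya4 encode cofactors of Six4-type proteins. Neither was bulge-high under the averaged probe sets (log2 0.03 for Eya4 and 0.35 for Eya1), the offset (0.56 and 0.54) or the median floor (0.61 and 0.90), and under the 99th percentile floor Eya1 had 0.16 and Eya4 no value above it. The list median was 0.60.

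MEF2 and SRF co-regulators contained 1 gene with a difference near that of Mef2c. Smyd1, a muscle-restricted methyltransferase and known MEF2C target, read 8.35 in bulge and 2.23 in hairshaft, at least 50.9-fold apart (log2 5.67). Of its 5 probe sets above the floor, 3 were bulge-high, while the other 2 were identical on both arrays, and the mean of all its probe sets gave 2.43. Smarcd3, the chromatin-remodelling subunit that MyoD recruits, was 5.08-fold higher in the bulge (7.87 in bulge and 5.53 in hairshaft). Ankrd2, a stretch-responsive muscle protein, was 3.80-fold higher (6.02 in bulge, 4.09 in hairshaft), and Hdac9, a class IIa deacetylase that represses MEF2, at least 3.11-fold (4.31 in bulge, 2.29 in hairshaft). Hdac9 was not bulge-high under the 99th percentile floor (log2 0.10), the averaged probe sets (0.64), the offset (0.68) or the median floor (0.84). In all, 6 of 24 were bulge-high (25.0%, against 11.4%) and 0 hairshaft-high, and the median was 0.28.

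In the list of TEAD, VGLL, NFAT, NFI and related factors, 5 of 21 were bulge-high (23.8%, against 11.4% of all genes) and 1 hairshaft-high (4.76%, against 4.91%), and the median was -0.22. Tbx15, a T-box factor of fast fibres that is also found in dermis and fat, read 7.91 in bulge and 2.77 in hairshaft (35.2-fold, log2 5.14), and its second probe set gave a log2 difference of 3.21. The value for the brightest was 3.70 under the 99th percentile floor and 3.49 under the offset. Klf15, a metabolic regulator of muscle and fat, was 16.9-fold higher in the bulge (7.60 in bulge and 3.52 in hairshaft, log2 4.08), and the log2 difference was 2.93 under the offset. Vgll2, a muscle cofactor of TEAD proteins, was 3.14-fold higher (5.49 in bulge, 3.84 in hairshaft). Nfatc1 was 2.19-fold higher (9.09 in bulge, 7.96 in hairshaft) and Nfib 2.18-fold (11.30 in bulge, 10.17 in hairshaft), both being known regulators of follicle stem cells as well. Neither was bulge-high when its probe sets were averaged (log2 0.85 for Nfatc1 and 0.51 for Nfib). Tead4, which acts with MyoD in fusion, was 2.30-fold higher in the hairshaft (6.07 in bulge and 7.27 in hairshaft) in both of its probe sets.

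**Figure D3:**
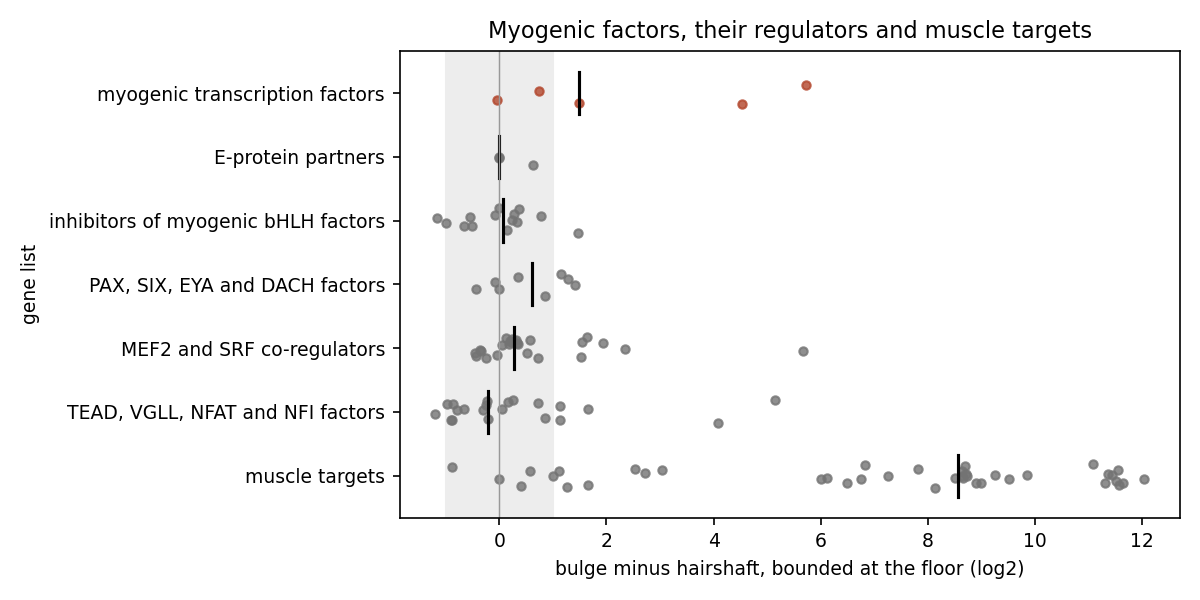
Bounded bulge minus hairshaft differences (log2, horizontal axis) of the 5 myogenic factors above the floor, of 5 lists of other factors and of the muscle target list (vertical axis). Each point is a gene, black bars are list medians and the grey band spans less than 2-fold; most regulators lie in or near the band, and the targets reach 12.04.

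Genes that myogenic factors are known to switch on were mostly higher in the bulge. Of 48 listed targets, 40 were above the floor; 35 were bulge-high (87.5%, against 11.4% of all genes), 30 of them by 8-fold or more (against 3.02%), and 0 were hairshaft-high (against 4.91%). The list median was 8.57. The 4 largest differences were in contractile genes, namely skeletal actin Acta1 (15.15 in bulge and 3.11 in hairshaft), Tnni2 (14.48 in bulge, 2.85 in hairshaft), Myl1 (14.25 in bulge, 2.30 in hairshaft) and Tnnc2 (14.23 in bulge, 2.56 in hairshaft). The 8 that exceeded the floor in neither structure were the fusion genes Mymk and Mymx, the myoblast cadherin Cdh15, the fetal receptor subunit Chrng, the adult subunit Chrne, the synapse organizers Musk and Rapsn and the slow-fibre troponin Tnni1. The 5 that differed by less than 2-fold were embryonic myosin Myh3 (3.08 in bulge and 3.96 in hairshaft), Chrnd (2.84 in both), Actc1 (4.34 in bulge, 3.94 in hairshaft), Casq2 (4.75 in bulge, 4.18 in hairshaft) and the ligase Fbxo32 (9.03 in bulge, 8.03 in hairshaft). Fbxo32 lay just under 2-fold (1.99-fold) with its brightest probe set, and 2 of its 3 probe sets were bulge-high. Perinatal myosin Myh8 was bulge-high, with a difference of at least 8.24-fold (5.72 in bulge, 2.34 in hairshaft), and the receptor subunit Chrna1 2.40-fold (4.19 in bulge, 2.93 in hairshaft). Chrna1 did not exceed the 99th percentile floor (4.21) on either array. With that floor the Myh8 difference was far under 8-fold, with 5.72 in bulge against the floor of 4.21 in hairshaft. These descriptions by stage were added with the values known.

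Markers of the cell types that could lie in the dissected pieces were read beside these factors, and their lists differed in direction. Their counts stand against the same 11.4% bulge-high and 4.91% hairshaft-high of all genes. All 16 markers of mature skeletal muscle were higher in the bulge by 8-fold or more, with values from 11.75 to 15.15 in the bulge and from 2.30 to 4.97 in the hairshaft, where 8 of 16 did not exceed the floor. Of these 16, 12 were also in the muscle target list, so the counts of the lists are not independent readings. The part of muscle in the Myf6, Mef2c and Six4 differences was not tested. Of 16 satellite cell markers, 12 were above the floor; 1 was bulge-high (8.33%), 2 were hairshaft-high (16.7%) and 9 differed by less than 2-fold, and the median was 0.09. The 4 that exceeded the floor in neither structure were Pax7, Cdh15, Calcr and Chrdl2. Just under 2-fold toward the bulge were Ncam1 (4.59 in bulge, 3.59 in hairshaft), Vcam1 (5.48 in bulge, 4.49 in hairshaft) and Itga7 (5.94 in bulge, a difference of 1.92-fold), named after their values were seen, surface proteins that are not restricted to satellite cells. Cxcr4, a chemokine receptor shared with leukocytes and endothelium, was 3.42-fold higher in bulge tissue (4.58 in bulge and 2.81 in hairshaft), Fgfr4 2.10-fold higher in the hairshaft (3.80 in bulge and 4.87 in hairshaft), and Sdc4, also made by keratinocytes, 2.40-fold higher in the hairshaft (10.88 in bulge and 12.14 in hairshaft). The other Sdc4 probe set went the opposite way (7.52 in bulge and 5.65 in hairshaft). Cxcr4 and Fgfr4 were under 2-fold with the offset (log2 0.80 and -0.60) and the 99th percentile floor (0.37 and -0.66), and Fgfr4 also with averaged probe sets (-0.32).

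Markers of endothelium and smooth muscle, which also use Mef2c, were mostly higher in the bulge. Of 11 endothelial markers, 8 were bulge-high (72.7%, against 11.4% of all genes) and 0 hairshaft-high (against 4.91%), and the median was 2.72. Values ran from 3.98 to 8.22 in the bulge and from 2.34 to 6.37 in the hairshaft, and Pecam1, the vessel adhesion molecule, read 7.83 in bulge and 2.56 in hairshaft (at least 35.6-fold). Of 10 smooth muscle markers, 7 were bulge-high (70.0%, median 1.46), over a range of 3.01 to 11.12 in the bulge and 3.01 to 9.69 in the hairshaft. Leukocyte markers ran the other way, with 0 of 7 bulge-high, 1 hairshaft-high (Cd3e, 14.3% of the list) and a median of -0.71, from 2.84 to 12.81 in the bulge and 2.84 to 13.00 in the hairshaft. Of 5 nerve and Schwann cell markers, 2 were bulge-high (Sox10 and Cdh19, the first not so under the offset, 0.74, quantile normalization, 0.90, or averaged probe sets, 0.35), with a median of 0.997, from 3.45 to 7.84 in the bulge and 2.74 to 8.80 in the hairshaft. The probe sets of Mbp, a myelin protein, disagreed, since the brightest read 7.84 in bulge and 8.80 in hairshaft, while 6 of its 8 were bulge-high. No list of fat markers was set up, but the adipocyte genes Adipoq (11.96 in bulge and 2.57 in hairshaft) and Adig (7.79 in bulge and 2.73 in hairshaft), picked after their values were seen, were also bulge-high. Most listed markers of skeletal muscle, endothelium and smooth muscle, and the picked genes Adipoq and Adig, were higher on the same array. The tissues they mark cannot be told apart as carriers of the Mef2c signal.

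The labels of the 2 pieces were checked on their own markers. Of 7 bulge markers, 6 were bulge-high (85.7%, against 11.4% of all genes), the exception being Krt15. Of these 6, Nfatc1 (2.19-fold) and Tcf7l1 (2.05-fold) only just passed 2-fold. Of 10 hair shaft keratins, 6 were bulge-high as well (60.0%) and 0 hairshaft-high (against 4.91%). The largest differences were at least 21.1-fold for Krt33a and at least 10.8-fold for Krt31. In the hairshaft 4 of 10 did not exceed the floor and values reached 5.71. Most hair shaft keratins were thus higher in the piece labelled bulge, and they do not bear out the label hairshaft.

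**Figure D4:**
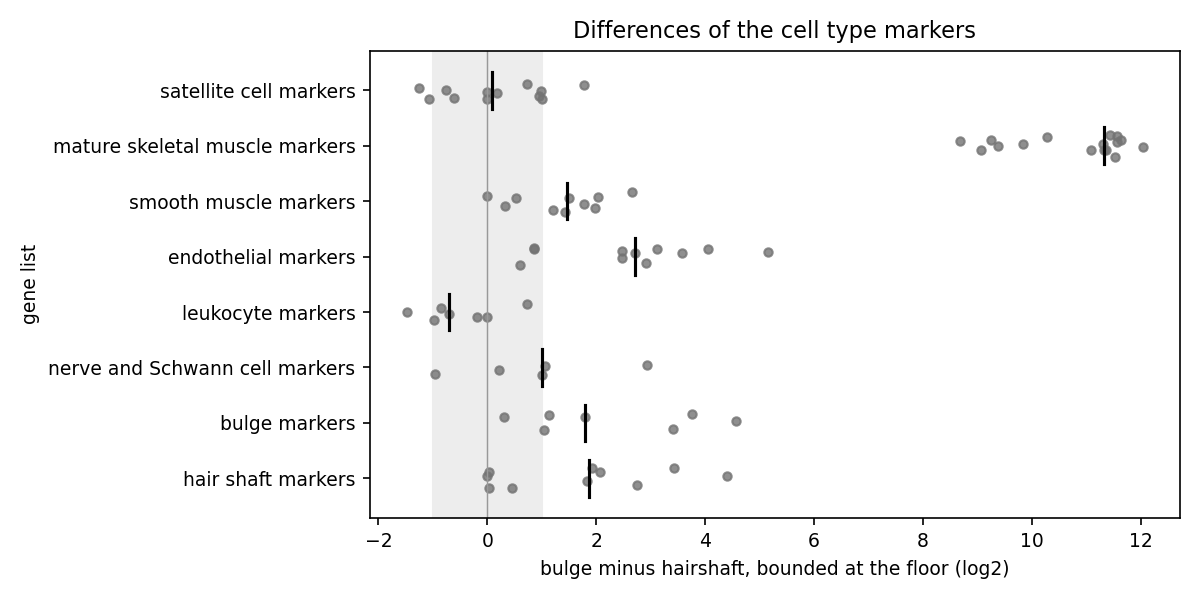
Bounded bulge minus hairshaft differences (log2, horizontal axis) of 8 marker lists (vertical axis), 1 point per gene above the floor, with black bars for list medians and a grey band for less than 2-fold. Mature skeletal muscle markers lie between 8.68 and 12.04, satellite cell markers scatter around their median of 0.09, and leukocyte markers lie mostly left of 0.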

How the data were processed

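Total RNA (30 ng) was amplified and biotin-labelled, per the labels' protocols. The authors deposited log2 values per probe set, computed with GCRMA per the submitters' processing notes, without a stated version. That the scale is log2 follows from the range, 2.23 to 15.36. Arrays have no sequencing depth, and their number (1 per structure) limits the precision.

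Symbols came from the platform annotation, which gave 34958 probe sets 1 symbol, 932 several and 9211 none, and were updated for 34754 through RefSeq gene identifiers (GRCm38.p6). Each gene took its probe set with the highest mean. Differences, bounded at the floor, were counted at 2-fold and 8-fold; no test was possible with 0 residual degrees of freedom. Counting was tested on simulated data, with large changes in probe sets well above the floor only. That test does not cover values near the floor or changes near 2-fold. Genes followed through the alternatives were all members and, per list, the up to 4 with the largest differences in each direction, or all where a count was 5 or fewer. Not all of them are named above, least of all for the smooth muscle, endothelial, bulge and hair shaft lists. The targets named for stage and the members at the floor were chosen after their values were seen. The members and lists were chosen with earlier results of these data known. Alternatives (9) covered the floor, the probe set, an offset and the normalization (loess span 0.3). The number of unmatched columns was 0. Python 3.11.15, pandas 2.3.3, numpy 2.4.6 and statsmodels 0.14.6 were used.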

Additional observations from a re-analysis of the deposited data

How the results depend on the processing

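Of the family, Mef2c and Myf6 kept a bulge excess of 2-fold or more, and Mef2d stayed under 2-fold, with all 9 alternatives. The 99th percentile floor left 5 member probe sets at least 2-fold and 1 member gene at least 8-fold higher in the bulge; plain probe sets left 5 probe sets at 2-fold, and the offset of 16 left 3 probe sets and 1 gene at 8-fold. Regulators at least 2-fold higher in the bulge numbered 9 with the mean of probe sets, and those higher in the hairshaft 1 with the offset and 5 with quantile normalization. These regulator counts were not set against the shares of all genes under the same alternatives. The median of the muscle targets was 7.17 with the 99th percentile floor, 7.83 with the floor at the median of the whole table, 7.04 with no floor, 6.79 with the mean of probe sets, 7.82 with plain probe sets and 6.77 with the offset. That of mature skeletal muscle markers was 9.83, 10.56, 9.35, 9.82 and 9.54 with the same alternatives except no floor. The 99th percentile floor and the offset gave medians of 1.81 and 1.63 for endothelial markers and 1.22 and 0.98 for hair shaft markers. Satellite cell markers had 0 genes higher in the bulge and 1 in the hairshaft with either of these, 0 in the hairshaft with the mean of probe sets, and 2 in the bulge and 1 in the hairshaft with plain probe sets. Nerve markers had a median of 0.35 with the mean of probe sets and 1 gene higher in the bulge with plain probe sets. Sdc4 reversed to 0.30 with the mean and 1.87 with plain probe sets. With no floor, the target median by construction also took in the 8 targets that exceeded the floor in neither structure. The causes were not tested further, beyond a higher floor or offset shrinking differences by construction.

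Of 41 other genes followed through the alternatives, not all of them named above, 32 shifted by more than 1.5-fold under 1 or more alternatives. The shift was to a smaller size in 79 of 80 values. No paired analysis was possible because each structure has 1 array, and no replicate could be left out. Values near the floor limit Six4, Myf6 and the low regulators.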
